A study of Homo sapiens with 18 samples.

Results

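The lowest dose of FUCO given on top of free fatty acids was compared with the fatty acid model alone in Hep3B cells, a human hepatoma line. FUCO is fucoxanthin, a carotenoid of marine algae. The 6 libraries compared, of 18 in the series, were taken by their titles: 3 of cells with free fatty acids (FFA) and FUCO at 0.5 μM (FUCO-0.5) and 3 of cells with FFA alone, the model (Model). Both groups therefore carried the FFA, and they differed in the FUCO. The other libraries of 3 per group were the control (Con), FFA with FUCO at 1 or 2 μM (FUCO-1 and FUCO-2) and FFA with Resmetirom. The levels of Con, FUCO-1 and FUCO-2 are given to place those at 0.5 μM, and all 18 libraries entered the fit that estimated the spread behind the calls. The question of the comparison was which genes differed at the smallest amount of FUCO tested. The methods give 3 biological replicates per condition from 1 line, and the FFA amount and the treatment times of these libraries are not given in the sources used here.

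Immediate early genes are transcribed within minutes of a signal without new protein synthesis, and many encode transcription factors of the EGR, AP-1, KLF and NR4A families. Their transcripts are short-lived, and the phosphatases and decay factors that they include switch the signal off again. In liver cells they respond to growth factors, serum, stress and lipids, beside lipid genes that answer to SREBP and PPAR factors.

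The 3 model libraries held 18317088 to 18994381 counts and the 3 FUCO-0.5 libraries 17740625 to 19425500. Of 14 hepatocyte markers, 14 lay above 1 CPM (read counts relative to a library size scaled by TMM) in all 6 libraries, and their summed level was 63920 to 64950 CPM in the model and 53340 to 66080 CPM with FUCO. ALB, the gene of serum albumin, gave 32320, 36190 and 28000 CPM in FUCO-0.5 replicates 1, 2 and 3 and 33620, 34280 and 33840 CPM in the model. The FUCO-0.5 libraries were farther apart from each other than the model libraries were, and the chi-square per degree of freedom between library pairs was 6.05 to 18.6 against 3.07 to 3.86. The part of this spread in the results was not tested. Counts of calls without single libraries are given below. Markers of other cell types were few: 7 fibroblast or stellate markers summed to 18.51 to 20.39 CPM in the model and 17.44 to 18.45 CPM with FUCO, and 5 leukocyte markers to 3.558 to 3.789 and 3.072 to 3.292 CPM. The 4 endothelial markers summed to 1.151 to 1.445 and 0.9324 to 1.934 CPM. COL3A1, ACTA2, CDH5, KDR and MARCO had 0 counts in all 6 libraries. In contrast, PDGFRB (9.76 to 14.2 CPM), LUM (3.84 to 5.47 CPM), COL1A1 (1.2 to 1.79 CPM) and CD14 (2.96 to 3.73 CPM) lay above 1 CPM in all 6. They were 3 of the 7 fibroblast or stellate markers and 1 of the 5 leukocyte markers.

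FUCO at 0.5 μM lowered a small set of genes, among them 24 of 32 immediate early genes tested, and the rises were fewer and smaller. The gene lists used throughout were chosen with earlier results of these data known, so their counts describe the lists and do not test them. Of 14557 genes tested with edgeR, 39 were DEGs (adjusted p under 0.05 and absolute log2 fold change over 1), and all 39 were lower with FUCO than in the model (0.268% of genes tested), with 0 higher (0.0%). At an unadjusted p under 0.05 there were 1641 of the 14557 genes, counting both directions. Of these, 25 had a log2 fold change over 1 and 74 one under -1. By adjusted p alone, 169 genes were lower (1.16%) and 42 higher (0.289%). The median log2 fold change was -0.63 among the former and 0.43 among the latter, against 0.000588 over all genes tested. All 211 called genes had no overlap between the 3 libraries of each group. Such separation was common, however, since 1434 genes (9.85%) were lower and 1413 genes (9.71%) higher in all 3 FUCO-0.5 libraries than in any model library. The 5 DEGs whose fall itself exceeded the threshold in edgeR's glmTreat were EGR2, ATF3, KLF2, MIRLET7A1HG and CCN1.

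**Figure D1:**
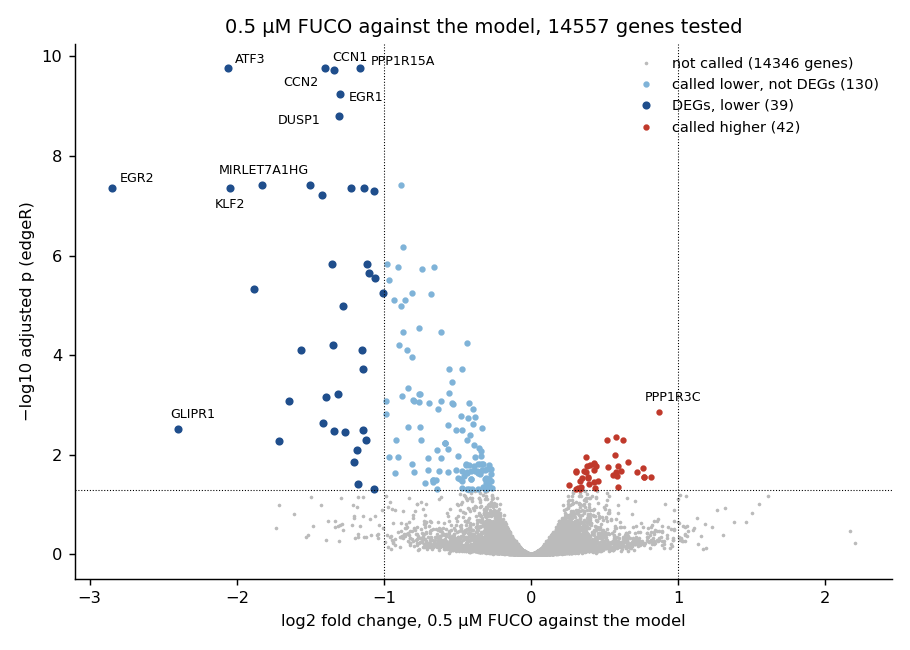
Log2 fold change of 0.5 μM FUCO against the model (x axis) and -log10 of edgeR's adjusted p (y axis) for 14557 genes. The 39 DEGs (dark blue) all lie on the side of lower levels with FUCO, 130 further genes were called lower (light blue), and the 42 genes called higher (red) reach a log2 fold change of at most 0.8713; dotted lines mark the thresholds.

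The number of calls depended on single libraries more than the DEGs did. Without Model replicate 1 or 2, 107 or 99 genes were lower by adjusted p, and without FUCO-0.5 replicate 1, 101. The number of higher genes fell to 7, 11 and 12 without Model replicates 1, 2 and 3 and to 17, 16 and 24 without FUCO-0.5 replicates 1, 2 and 3, and it was 71 without Con replicate 1. Of the 39 DEGs, between 31 and 37 stayed DEGs when 1 of these 6 libraries was left out, and all 39 kept a negative log2 fold change. DESeq2 with all libraries called 1 gene higher past both thresholds, MT2A, which is described with the metallothioneins below.

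The immediate early genes are shown with their promoters, because they made up the largest list among the DEGs, with 10 of 39. This list was chosen with earlier results of these data known. Sequences run 5′ to 3′ on the strand of the gene from 250 bases before to 50 bases after its outermost start in RefSeq (GRCh38.p14). They are the 5 immediate early DEGs with the largest falls whose window was in the table and held a searched motif, and capitals mark the motif matches on either strand. EGR2 (chr10:62819118-62819417, minus strand) holds the TEAD site GGAATG as its complement. KLF2 (chr19:16324576-16324875, plus strand) and BTG2 (chr1:203305269-203305568, plus strand) hold the EGR site GCGNGGGCG. FOSB (chr19:45467746-45468045, plus strand) holds a TATA box, TATAAA. EGR1 (chr5:138465229-138465528, plus strand) holds an EGR site and a pair of CArG boxes, the element bound by serum response factor.
EGR2 promoter: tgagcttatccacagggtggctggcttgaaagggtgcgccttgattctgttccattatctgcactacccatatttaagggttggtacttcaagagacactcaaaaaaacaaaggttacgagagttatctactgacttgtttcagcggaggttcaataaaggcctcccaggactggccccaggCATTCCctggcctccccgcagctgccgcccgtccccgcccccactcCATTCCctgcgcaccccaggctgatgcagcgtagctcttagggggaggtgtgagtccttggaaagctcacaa
KLF2 promoter: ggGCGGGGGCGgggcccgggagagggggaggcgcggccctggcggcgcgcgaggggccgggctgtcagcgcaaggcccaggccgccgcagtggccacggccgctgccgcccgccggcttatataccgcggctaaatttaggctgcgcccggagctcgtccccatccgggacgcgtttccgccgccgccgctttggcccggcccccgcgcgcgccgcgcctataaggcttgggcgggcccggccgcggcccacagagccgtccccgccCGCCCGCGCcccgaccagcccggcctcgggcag
BTG2 promoter: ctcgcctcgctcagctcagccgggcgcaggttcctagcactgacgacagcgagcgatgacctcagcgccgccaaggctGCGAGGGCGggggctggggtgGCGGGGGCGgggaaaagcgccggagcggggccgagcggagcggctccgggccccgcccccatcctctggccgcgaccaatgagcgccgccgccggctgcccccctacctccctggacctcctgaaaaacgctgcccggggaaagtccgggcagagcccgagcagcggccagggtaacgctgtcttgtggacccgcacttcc
FOSB promoter: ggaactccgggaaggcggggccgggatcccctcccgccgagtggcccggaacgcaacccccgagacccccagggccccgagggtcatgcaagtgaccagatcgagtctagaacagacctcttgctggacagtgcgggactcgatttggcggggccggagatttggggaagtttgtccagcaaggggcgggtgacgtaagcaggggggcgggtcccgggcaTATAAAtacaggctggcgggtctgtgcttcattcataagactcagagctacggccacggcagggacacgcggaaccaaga
EGR1 promoter: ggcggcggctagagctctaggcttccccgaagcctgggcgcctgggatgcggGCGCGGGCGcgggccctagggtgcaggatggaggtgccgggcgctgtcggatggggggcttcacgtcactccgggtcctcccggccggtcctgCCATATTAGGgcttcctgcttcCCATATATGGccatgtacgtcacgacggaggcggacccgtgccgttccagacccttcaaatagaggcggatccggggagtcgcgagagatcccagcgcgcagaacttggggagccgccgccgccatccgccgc
The windows of ATF3, NR4A1 and CSRNP1, also immediate early DEGs, held none of the 7 motifs, which says only that these letters are not in these windows. Starts further inside a gene were not examined. The marked motifs were in part common: the EGR site was in 17.5% of promoters of genes called lower against 15.1% of tested genes, and the TEAD site in 10.9% against 11%.

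Of 32 immediate early genes tested, 24 fell (75%, against 1.16% of all genes tested), 0 rose and 8 did not pass the test. This list was chosen with earlier results of these data known. The median log2 fold change of the list was -0.82, against 0.000588 over all genes tested, and 32 of 32 were below 0, against 7250 of all 14557. EGR2, a zinc finger factor of the early growth response family, had 6.75, 5.95 and 8.5 CPM in the 3 model libraries and 1.26, 0.941 and 0.726 CPM in the 3 FUCO-0.5 libraries. It was left at 13.8% of its mean in the model, the largest fall of all DEGs (log2 fold change -2.85, SE 0.25, adjusted p = 4.32e-08). Its paralog EGR1 went from 875, 918 and 954 CPM to 400, 384 and 334 CPM (log2 fold change -1.30, SE 0.09, adjusted p = 5.62e-10). The groups of both genes lay far apart. EGR3 and EGR4 were not tested, with at most 2 and 3 counts in a library.

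ATF3, a stress-induced bZIP repressor, had 186, 238 and 189 CPM in the model and 46.0, 53.6 and 46.9 CPM with FUCO, a 4.18-fold fall of the mean (adjusted p = 1.73e-10). KLF2, a Krüppel-like factor known for its control of quiescence, fell from 44.2, 49.7 and 43.2 CPM to 10.8, 11.2 and 11.1 CPM (4.14-fold, adjusted p = 4.46e-08). The 3 FUCO-0.5 values of KLF2 were almost the same, with an SD of 0.199 CPM. BTG2, an antiproliferative cofactor of mRNA deadenylation, fell from 50.3, 63.5 and 61.4 to 23.4, 21.0 and 17.5 CPM (log2 fold change -1.5, SE 0.13, adjusted p = 3.80e-08).

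FOSB, an AP-1 subunit, fell from 231, 218 and 212 to 102, 85.9 and 63.4 CPM (log2 fold change -1.39, SE 0.23, adjusted p = 0.000687). IER3, a regulator of apoptosis that overlaps IER3-AS1, fell from 14, 16.2 and 17.8 to 5.87, 4.60 and 8.87 CPM (adjusted p = 0.00059). The nuclear receptor NR4A1 fell from 69.7, 66.4 and 65.4 to 37.3, 21.7 and 24.1 CPM (log2 fold change -1.28, SE 0.16, adjusted p = 1.04e-05), and FUCO-0.5 replicate 1 lay highest. NR4A1 overlaps the antisense gene NR4A1AS, and strand use in the counting is not given in the sources used here. Further members, named after their values were seen, had smaller falls: JUN (log2 fold change -0.98, adjusted p = 1.47e-06), FOS (-0.84, adjusted p = 0.00276) and MYC (-0.81, adjusted p = 0.000107). JUN and FOS are the founding AP-1 subunits and MYC drives growth genes. The 8 genes that did not pass were KLF4, CEBPB, SRF, NFIL3, IER5, FOSL1, CEBPD and IER5L, with log2 fold changes from -0.74 to -0.03.

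**Figure D2:**
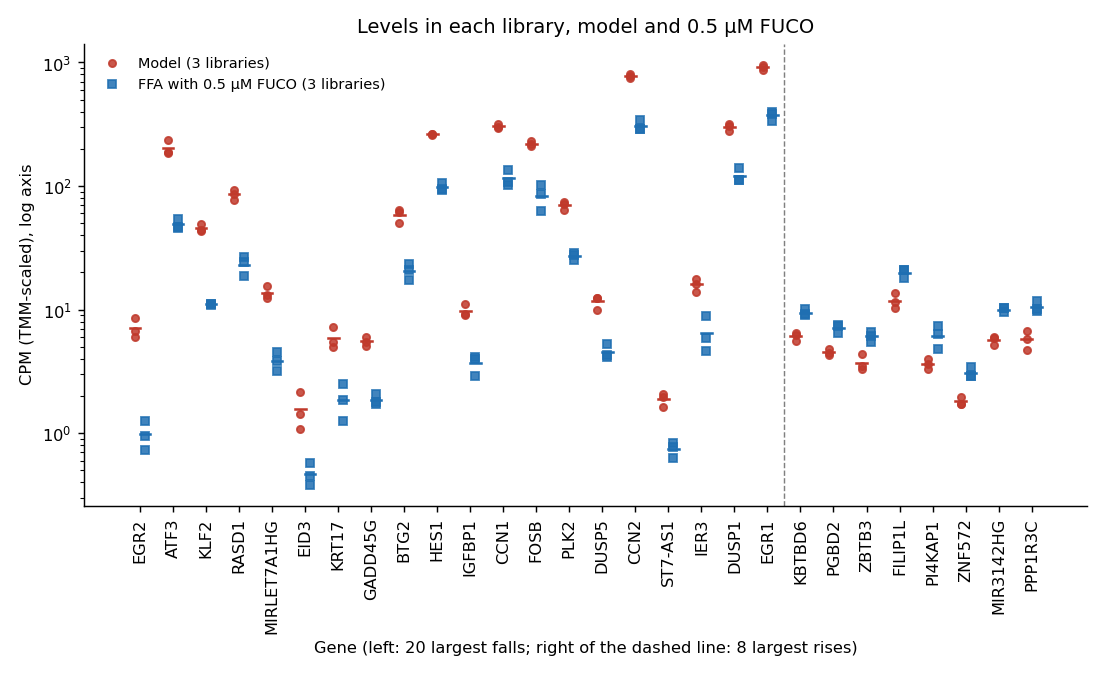
CPM in each of the 3 model libraries (red circles) and the 3 FUCO-0.5 libraries (blue squares) on a log axis for the 20 DEGs with the largest falls and the 8 called genes with the largest rises, with the mean as a bar. In each gene the groups do not overlap; EGR2 lies between 5.95 and 8.5 CPM in the model and between 0.726 and 1.26 CPM with FUCO.

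Genes of MAPK feedback, which are induced by ERK signalling and limit it, moved in part. Of 19 tested, 6 fell (31.6%, against 1.16% of all genes tested) and 0 rose, with a list median of -0.20. DUSP1, a phosphatase of p38, JNK and ERK, fell from 277, 315 and 306 to 139, 113 and 111 CPM (log2 fold change -1.31, SE 0.10, adjusted p = 1.60e-09). DUSP5, which acts on nuclear ERK, fell from 9.98, 12.5 and 12.5 to 4.12, 5.28 and 4.30 CPM (adjusted p = 6.37e-05). DUSP4 fell by 0.81 on the log2 scale (adjusted p = 0.0149, or 0.148 without Model replicate 2, and it was also lost without FUCO-0.5 replicate 1), and ERRFI1, an inhibitor of the EGF receptor, by 0.63 (adjusted p = 0.00121). The other fallen members, DUSP6 and DUSP10, changed by -0.61 each. The Sprouty genes SPRY1, SPRY2 and SPRY4 had log2 fold changes of -0.14, -0.32 and -0.20 and were not called.

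Among 19 ligands and receptors of growth factors, 1 gene was called (5.26%, against 1.16% of all genes tested called lower). This was EREG (epiregulin, a ligand of the EGF receptor). It fell from 83.2, 109 and 89.8 to 49.2, 57.1 and 56.2 CPM (log2 fold change -0.80, SE 0.13, adjusted p = 0.000814). The ligands AREG and HBEGF had log2 fold changes of -0.55 (adjusted p = 0.12) and -0.72 (adjusted p = 0.24). The receptor genes EGFR, MET and ERBB2 stood at 0.00, -0.00 and -0.06.

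Of 27 targets and partners of YAP and SRF, 4 fell (14.8%, against 1.16% of all genes tested) and 0 rose. The list median of -0.03 lay close to that of all genes. CCN2, a matricellular protein linked to fibrosis, fell from 745, 773 and 807 to 341, 287 and 290 CPM (log2 fold change -1.34, SE 0.09, adjusted p = 1.86e-10). CCN1, its paralog, fell from 295, 301 and 316 to 135, 102 and 109 CPM (log2 fold change -1.4, SE 0.09, adjusted p = 1.73e-10). CCN2 overlaps CCN2-AS1. ANKRD1, a muscle and stress ankyrin protein, fell from 41.5, 61.9 and 42.4 to 17.3, 21.9 and 21.6 CPM (adjusted p = 0.00354, or 0.0518 without Model replicate 2, its highest library). AMOTL2, an angiomotin that binds YAP, fell by 0.75 (adjusted p = 0.000602). The actin genes ACTB and ACTG1, the TEAD factors and YAP1 itself were not called, and their log2 fold changes ranged from -0.03 to 0.10.

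Of 31 BMP, TGFβ and activin genes tested, 9 fell (29%, against 1.16% of all genes tested) and 0 rose (list median -0.07). The BMP-responsive inhibitors of bHLH factors were among them: ID1 went from 58.8, 51.0 and 63.1 to 27.1, 20.5 and 28.8 CPM (log2 fold change -1.18, SE 0.24, adjusted p = 0.00794, or 0.0667 without FUCO-0.5 replicate 2). ID4 fell by 0.97 (adjusted p = 0.0109), a call that was lost without Model replicate 3 or FUCO-0.5 replicate 2 or 3, with an adjusted p of up to 0.0774. GDF15, a stress cytokine, and FST (follistatin, a secreted antagonist that binds activin) fell as well. GDF15 had 274, 319 and 289 CPM in the model and 113, 128 and 156 CPM with FUCO (adjusted p = 7.75e-05). FST had 10.7, 11.8 and 12 and then 5.27, 6.48 and 3.85 CPM (adjusted p = 0.000187). Outside the rule for named genes, BMP4 (-0.93), BMP2 (-0.88), ID2 (-0.66) and INHBE (-0.47) also fell, while ID3 had -1.17 and was not called (adjusted p = 0.07). The receptors BMPR1A, BMPR2, TGFBR1 and TGFBR2 had log2 fold changes from -0.12 to 0.15 and were not called.

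Of 12 Notch genes, HES1 was the 1 called (8.33%, against 1.16% of all genes tested called lower). HES1, a repressor that answers to Notch, BMP and growth factor signals, lay at 262, 260 and 266 CPM in the model and at 106, 94.8 and 93.3 CPM with FUCO (log2 fold change -1.42, SE 0.13, adjusted p = 6.12e-08). The receptors NOTCH1, NOTCH2 and NOTCH3 and the ligand JAG1 had log2 fold changes from -0.13 to 0.13.

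Genes of growth arrest fell in 7 of 16 tested (43.8%, against 1.16% of all genes tested), with 0 higher and a list median of -0.34. GADD45G went from 6.03, 5.45 and 5.09 to 2.08, 1.73 and 1.79 CPM (log2 fold change -1.56, SE 0.22, adjusted p = 7.75e-05). GADD45B, also a GADD45 stress sensor, fell from 86.3, 75.7 and 99.7 to 39.2, 37.6 and 35.2 CPM (adjusted p = 4.46e-08). PLK2, a polo-like kinase that p53 and serum induce, fell from 64.4, 73.6 and 71.0 to 27.6, 29.0 and 25.3 CPM (adjusted p = 1.45e-06). RHOB, a short-lived small GTPase, fell by 0.88 (adjusted p = 1.01e-05). The p53 targets CDKN1A and MDM2 had log2 fold changes of -0.34 and 0.20 and were not called. Replication and mitosis genes gave 0 calls of 20 tested with edgeR and 0 with DESeq2. At an unadjusted p under 0.05, 5 of them were higher and 0 lower, against 1641 of all 14557 genes in either direction. The log2 fold changes of the 20 ranged from -0.10 to 0.26.

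Of 27 genes that answer to insulin, FOXO or glucocorticoids, 6 fell (22.2%, against 1.16% of all genes tested) and 0 rose (list median -0.14). IGFBP1, a secreted binding protein of insulin-like growth factors that insulin represses, fell from 11.1, 9.07 and 9.26 to 2.91, 4.13 and 3.96 CPM (log2 fold change -1.42, SE 0.26, adjusted p = 0.00233). CITED2, a transcriptional coregulator, fell from 105, 110 and 114 to 55.6, 44.4 and 49.8 CPM (adjusted p = 4.46e-08). TSC22D3, a glucocorticoid-induced leucine zipper protein, fell to 49.8% of its mean in the model (adjusted p = 5.61e-06), and the arrestin-domain gene ARRDC3, which overlaps an antisense gene, to 50.4% (adjusted p = 0.00151). These values mark the limit of the DEG threshold: TSC22D3 at -1.01 was just inside and ARRDC3 at -0.99 just outside. TRIB1 (-0.90) and TRIB3 (-0.54), which are pseudokinases, were the other fallen members. TXNIP, an arrestin that answers to glucose, had -0.83 and was not called (adjusted p = 0.223), and the glucocorticoid targets FKBP5 and PER1 had 0.11 and -0.19.

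Of 25 genes of NRF2 and the integrated stress response, 9 fell (36%, against 1.16% of all genes tested) and 0 rose. All 9 belong to the second of these pathways or to the endoplasmic reticulum. PPP1R15A, which directs the dephosphorylation of eIF2α, was at 187, 190 and 182 CPM in the model and at 84.7, 77.9 and 87.1 CPM with FUCO (log2 fold change -1.16, SE 0.07, adjusted p = 1.73e-10). DDIT3, the proapoptotic factor CHOP, fell from 29.2, 29.9 and 31.8 to 17.3, 17.2 and 15.1 CPM (adjusted p = 3.50e-05) and overlaps MARS1. The ER stress genes DNAJB9, a cochaperone, and HERPUD1, of ER-associated degradation, fell by 0.81 and 0.61 (adjusted p = 5.61e-06 and 3.38e-05). CHAC1, PHGDH, XBP1, HSPA5 and ATF4, named after their values were seen, completed the fallen members with log2 fold changes of -0.44, -0.43, -0.34, -0.34 and -0.29. The NRF2 targets NQO1, HMOX1, TXNRD1, GCLM and GCLC had log2 fold changes from 0.04 to 0.18 and were not called.

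Inflammatory genes were lower in part. Of 25 tested, 4 fell (16%, against 1.16% of all genes tested) and 0 rose, and DESeq2 with all libraries called 2 lower. LIF, a cytokine of the interleukin-6 family, fell from 11, 14 and 12.4 to 5.10, 6.54 and 5.53 CPM (log2 fold change -1.12, SE 0.22, adjusted p = 0.00509). The neutrophil chemokine CXCL8 had 212, 303 and 230 CPM in the model and 94.8, 115 and 120 CPM with FUCO (adjusted p = 0.0381), and CXCL2 had 40.7, 39.7 and 45.1 and then 22.2, 17.5 and 20.3 CPM (adjusted p = 0.0487). Both calls were lost with DESeq2 over all libraries and when any 1 of the 6 libraries was left out, with an adjusted p of up to 0.232 for CXCL8 and 0.203 for CXCL2. They also hung on libraries outside the comparison, since over all 18 libraries left out in turn CXCL8 was lost in 7 and CXCL2 in 14, among them Con replicates 2 and 3 and each FUCO-1 and Resmetirom library. With the 2 compared groups alone, both stayed DEGs in edgeR and in DESeq2. Of the 26 alternatives, 18 kept the CXCL8 call and 10 the CXCL2 call. FUCO-2 replicate 2 lay at 341 CPM for CXCL8, against 122 and 125 CPM in FUCO-2 replicates 1 and 3. For CXCL2 it lay at 63.7 CPM, against 17.7 and 20.1 CPM. NFKBIZ, a nuclear IκB protein, fell by 0.62 (adjusted p = 0.0215, and up to 0.113 without single libraries, being lost without each of the 6 except FUCO-0.5 replicate 2). Its call was kept in 21 of the 26 alternatives. CXCL5 and CXCL10 had log2 fold changes of 0.46 and 0.60 and were not called. TNF, IL1B, IL6 and CCL2 had at most 5 counts in a library and could not be tested at this depth.

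Few lipid genes were called at this dose, and few of all genes tested were. Of 30 genes of fatty acid uptake, synthesis and triglyceride formation, 1 fell (3.33%, against 1.16% of all genes tested) and 0 rose (list median -0.06). At an unadjusted p under 0.05, 9 were lower and 0 higher, against 1641 of all 14557 genes in either direction. Of 28 genes of fatty acid oxidation, PPAR response and lipid droplets 0 were called with edgeR, against 2 lower with DESeq2 and 6 lower at an unadjusted p under 0.05. The log2 fold changes of the 28 ranged from -1.52 to 0.50, with a lowest adjusted p of 0.072 in edgeR. FABP1, the liver fatty acid binding protein, fell from 923, 904 and 881 to 693, 691 and 644 CPM (log2 fold change -0.42, SE 0.11, adjusted p = 0.0479). That call was lost when any 1 of the 6 libraries was left out, with an adjusted p of up to 0.177, and in 11 of all 18 cases of a library left out. Of the 26 alternatives, 14 kept it. CD36, the fatty acid translocase, had 1.81, 1.06 and 1.68 CPM in the model and 1.81, 1.73 and 1.56 CPM with FUCO. The ranges of CD36 overlapped, and its log2 fold change was 0.16 with an SE of 0.36, so that a moderate difference was not detectable at this depth.

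The synthesis genes SCD (stearoyl-CoA desaturase), FASN (fatty acid synthase), ACACA (acetyl-CoA carboxylase) and their regulator SREBF1 had log2 fold changes of -0.29 (SE 0.08), -0.25 (SE 0.12), -0.08 (SE 0.10) and -0.31 (SE 0.11), with adjusted p of 0.103, 0.442, 0.851 and 0.226 in edgeR. DGAT2, which makes triglycerides, and ACSL1, which activates fatty acids, stood at 0.03 (SE 0.16) and -0.23 (SE 0.09). PLIN2, a coat protein of lipid droplets, had 817, 893 and 830 CPM in the model and 675, 771 and 664 CPM with FUCO (log2 fold change -0.27, SE 0.08, adjusted p = 0.104). CPT1A, the gate of mitochondrial fatty acid oxidation, stood at -0.21 (SE 0.07, adjusted p = 0.193). The adjusted p of SCD, PLIN2 and SREBF1 was 0.00615, 0.00808 and 0.000792 at its lowest among the alternatives, with the same direction, so that these 3 calls depended on the setting.

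Of 23 genes of cholesterol synthesis and uptake, 22 had a negative log2 fold change, against 7250 of all 14557 genes, and the list median was -0.19. At an unadjusted p under 0.05, 12 were lower and 0 higher, against 1641 of all 14557 genes in either direction. By adjusted p, 1 was called lower (4.35%, against 1.16% of all genes tested). FDPS, which makes farnesyl diphosphate, fell from 441, 454 and 447 to 372, 353 and 358 CPM (log2 fold change -0.31, SE 0.07, adjusted p = 0.0309). Its call was lost when any 1 of the 6 libraries was left out, with an adjusted p of up to 0.153, and kept in 20 of the 26 alternatives. Secreted hepatocyte proteins gave 0 calls of 19 with edgeR, 1 lower with DESeq2 and 6 lower at an unadjusted p under 0.05 (list median -0.17). In the retinoic acid list RARB, a receptor that retinoic acid induces, was the 1 gene called of 17 (5.88%, against 1.16% of all genes tested called lower). It lay at 1.92, 2.56 and 2.06 CPM in the model and at 0.878, 0.993 and 0.949 CPM with FUCO (log2 fold change -1.20, SE 0.26, adjusted p = 0.0139, or 0.113 without Model replicate 2, and lost also without FUCO-0.5 replicate 1).

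**Figure D3:**
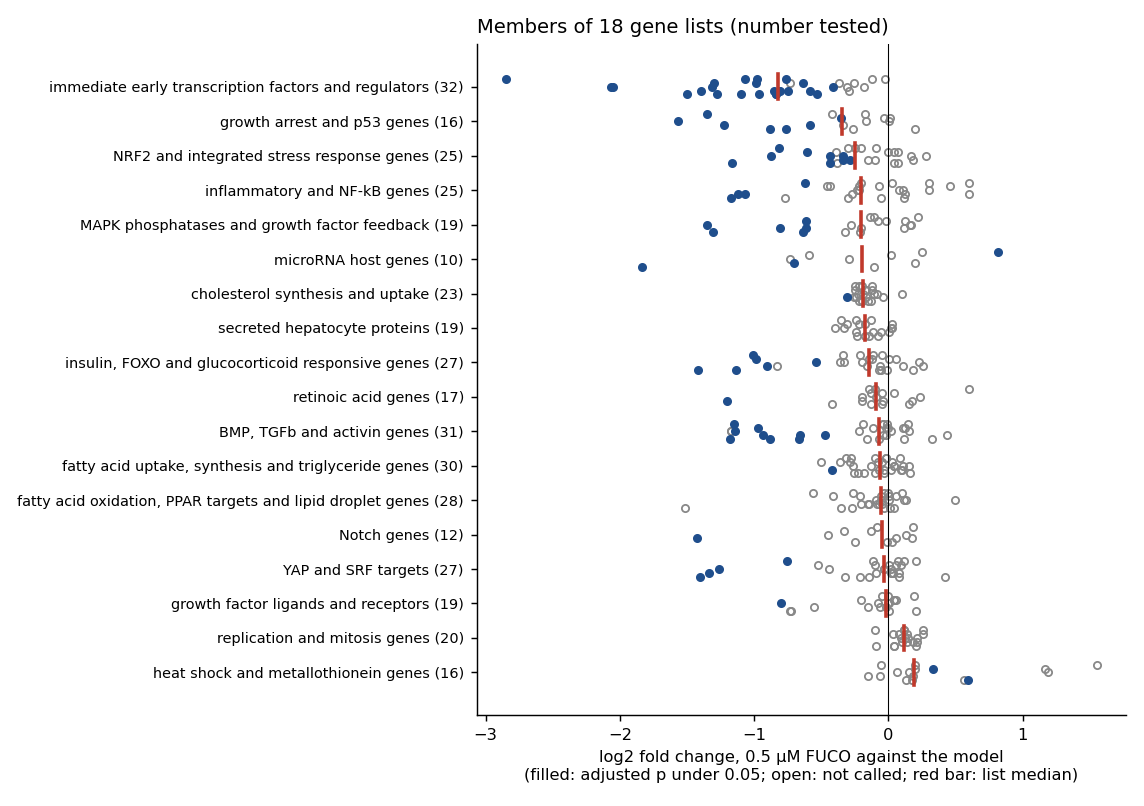
Log2 fold change of 0.5 μM FUCO against the model (x axis) for each tested member of 18 gene lists (y axis, number tested in brackets), filled where adjusted p was under 0.05, with the list median as a red bar. The immediate early list lies farthest to the left with a median of -0.82 and 24 of 32 members called; both fatty acid lists have medians near 0 and the cholesterol list one of -0.19, with 1 or 0 calls each. The lists were chosen with earlier results of these data known.

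Several DEGs fell outside the lists. RASD1, a dexamethasone-induced Ras-like GTPase, fell from 76.8, 86.1 and 93.5 to 26.6, 18.6 and 24.3 CPM (log2 fold change -1.89, SE 0.22, adjusted p = 4.70e-06). KRT17, a keratin, fell from 5.43, 7.29 and 4.98 to 1.26, 2.51 and 1.84 CPM (adjusted p = 0.000835). EID3, an inhibitor of differentiation that lies inside TXNRD1, had 1.43, 2.17 and 1.08 CPM and then 0.384, 0.575 and 0.447 CPM (adjusted p = 0.00531, or 0.0795 without Model replicate 2). ST7-AS1, antisense to ST7, fell from 1.97, 2.06 and 1.62 to 0.768, 0.627 and 0.837 CPM, and GLIPR1, which overlaps KRR1, from 1.10, 1.06 and 1.08 to 0.110, 0.314 and 0.167 CPM (20, 19 and 20 counts and 2, 6 and 3 counts; adjusted p = 0.00331 and 0.00306). DESeq2 gave no adjusted p for these 2 genes. The overlaps of these last 3 genes are of whole RefSeq spans. Whether reads of their partners entered their counts was not examined.

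Host transcripts of microRNAs changed in both directions, with 2 lower and 1 higher of 10 tested. Of all genes tested, 1.16% were called lower and 0.289% higher. Of 11 mature microRNAs that RefSeq places inside the 3 called hosts, 5 are shown, because they show which seeds are shared and which differ, and the others, which include miR-3142, are not; capitals mark the seed, bases 2 to 8. Polyadenylated RNA was sequenced, so the mature microRNAs themselves were not measured.
hsa-let-7a-5p: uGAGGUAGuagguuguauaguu
hsa-let-7f-5p: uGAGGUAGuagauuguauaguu
hsa-let-7d-5p: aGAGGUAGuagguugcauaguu
hsa-miR-22-3p: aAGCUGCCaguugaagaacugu
hsa-miR-146a-5p: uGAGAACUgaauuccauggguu
The first 3 share the seed GAGGUAG and lie in MIRLET7A1HG (chr9:94166258-94200905), whose transcript fell from 13.1, 15.6 and 12.5 to 4.50, 3.87 and 3.18 CPM (log2 fold change -1.83, SE 0.16, adjusted p = 3.80e-08). MIR22HG, the host of miR-22, fell from 16.7, 20.1 and 15.5 to 10.5, 13.1 and 8.54 CPM (adjusted p = 0.0113, or 0.124 without Model replicate 2, and lost also without FUCO-0.5 replicate 1 or 3). MIR3142HG, the host of miR-146a, a brake on NF-κB signalling, rose from 5.21, 5.84 and 6.01 to 9.49, 10.3 and 10.2 CPM (log2 fold change 0.81, SE 0.19, adjusted p = 0.028). The rise was not called when any 1 of the 6 libraries was left out, with an adjusted p of up to 0.149. It stayed called in 20 of the 26 alternatives.

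The rises were small. PPP1R3C, a glycogen-targeting subunit of protein phosphatase 1, rose the most among called genes with at least 1 CPM, from 5.81, 4.67 and 6.71 to 11.7, 9.67 and 10.2 CPM (log2 fold change 0.87, SE 0.15, adjusted p = 0.00137), and it stayed called in all 26 alternatives. KBTBD6, a ubiquitin ligase adaptor, rose from 6.47, 5.62 and 6.17 to 9.05, 10 and 9.15 CPM (adjusted p = 0.00509, or 0.0539 without Model replicate 2). The other rises of this size were those of FILIP1L (0.76), PI4KAP1 (0.77), a pseudogene with close paralogs, ZNF572 (0.77), ZBTB3 (0.72) and PGBD2 (0.66). Each of these 5 calls was lost without between 4 and 6 of the 6 libraries, PI4KAP1 with an adjusted p of up to 0.208. Each was kept in between 18 and 22 of the 26 alternatives. Symbols that start with ZNF, mostly zinc finger genes, were 6 of the 42 genes called higher (14.3%) and 0 of the 169 called lower, against 501 of 14557 tested (3.44%).

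Of 16 heat shock and metallothionein genes, 2 rose, against 0.289% of all genes tested, and 0 fell (list median 0.19). SLC30A1, a zinc exporter that zinc induces, rose from 16.3, 18.6 and 16.4 to 26.0, 22.9 and 28.5 CPM (log2 fold change 0.59, SE 0.15, adjusted p = 0.0439), and HSP90AA1, an inducible chaperone, from 730, 748 and 800 to 924, 966 and 987 CPM (adjusted p = 0.0474). Both calls were lost without single libraries, HSP90AA1 whichever of the 6 was left out and SLC30A1 whichever except FUCO-0.5 replicate 2, with an adjusted p of up to 0.228 and 0.182. Over all 18 libraries left out in turn they were lost in 13 and 6. Of the 26 alternatives, 13 kept the call of HSP90AA1 and 20 that of SLC30A1. MT2A, a metallothionein with close paralogs that was named after its values were seen, had 13, 21 and 10 counts in the model and 49, 25 and 57 counts with FUCO. Its log2 fold change was 1.55 (SE 0.45) with an adjusted p of 0.0972 in edgeR and 0.00179 in DESeq2. FUCO-0.5 replicate 2 held the lowest of the 3 counts with FUCO, close to the highest of the model.

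Differences between doses were few at 1 μM and many at 2 μM. Between 1 and 0.5 μM, 1 gene was called by adjusted p (0.00687%), and 1557 had an unadjusted p under 0.05. That gene was KLF6, a Krüppel-like factor named after its values were seen, with a log2 difference of -0.60 at 1 μM (SE 0.10, adjusted p = 0.0258). DESeq2 called 57 genes, and leaving out single libraries gave 0 to 20, with 0 without FUCO-0.5 replicate 1. Between 2 and 0.5 μM, 157 genes were DEGs (1.08%), 109 higher and 48 lower at 2 μM. By adjusted p alone 1227 genes were higher (8.43%) and 973 lower (6.68%) at 2 μM.

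In the immediate early list, 22 of 32 genes were higher at 2 than at 0.5 μM and 0 lower (list median 0.52). EGR1 was at 373 ± 34.6 CPM (SD, n = 3) at 0.5 μM, 428 ± 18.1 at 1 μM and 634 ± 77.1 at 2 μM, against 916 ± 39.7 in the model. ATF3 was at 48.8 ± 4.19, 39.4 ± 2.71 and 91.5 ± 13.9 CPM, against 204 ± 29.2. EGR2 was at 0.976 ± 0.27, 0.604 ± 0.0787 and 1.58 ± 0.393 CPM, against 7.07 ± 1.30, and its log2 difference between 2 and 0.5 μM was 0.68 (SE 0.31, adjusted p = 0.149). KLF2, HES1, DUSP1 and CCN2 had log2 differences between 2 and 0.5 μM of -0.07 (SE 0.20), -0.11 (SE 0.13), -0.00 (SE 0.10) and 0.17 (SE 0.09) and were not called. GDF15 was at 132 ± 22.0, 143 ± 7.49 and 326 ± 77.1 CPM at the 3 doses, against 294 ± 23.0 in the model. DUSP5 was at 4.57 ± 0.627, 4.8 ± 1.78 and 12.4 ± 1.26 CPM, against 11.7 ± 1.45. All comparisons of this paragraph share the FUCO-0.5 libraries that also set the falls against the model.

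**Figure D4:**
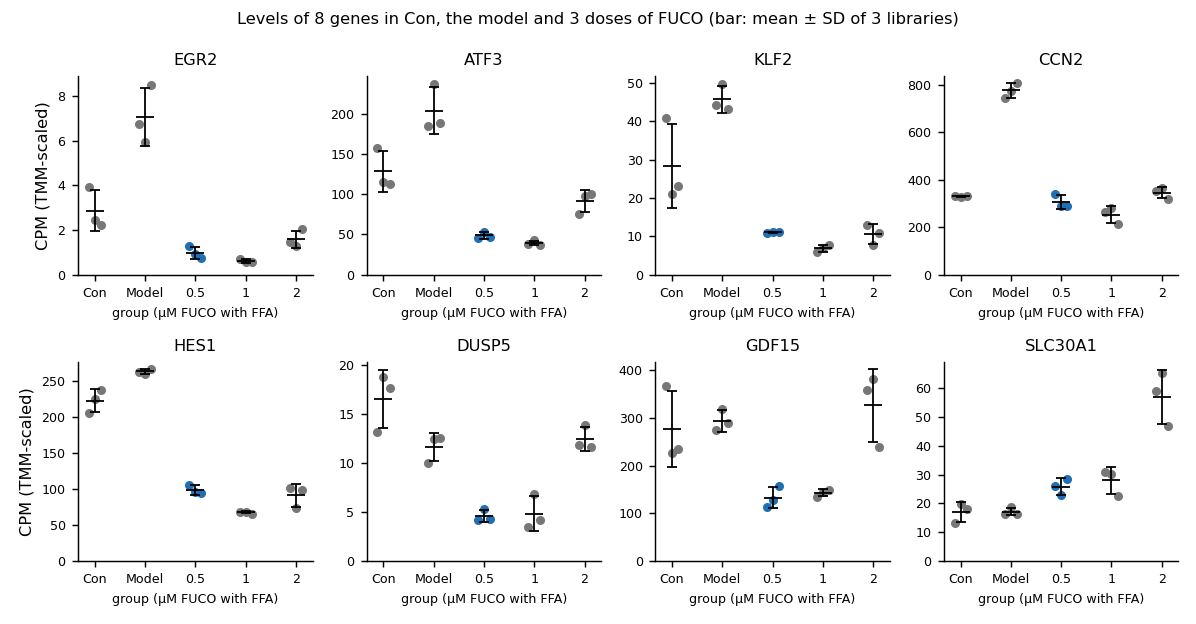
CPM of 8 genes (y axes start at 0) in Con, the model and FFA with 0.5, 1 and 2 μM FUCO (x axis), with each of 3 libraries as a point and mean ± SD as a bar; 0.5 μM is in blue. EGR2, ATF3, KLF2, CCN2 and HES1 stay below the model at each dose, DUSP5 and GDF15 lie at 12.4 and 326 CPM on average at 2 μM, near their model means, and SLC30A1 is highest at 2 μM.

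Stress genes also differed between the doses. Of 25 genes of NRF2 and the integrated stress response, 19 were higher at 2 than at 0.5 μM and 1 lower, HSPA5, and 12 of 16 heat shock and metallothionein genes were higher and 0 lower. SLC30A1 was at 25.8 ± 2.84 CPM at 0.5 μM, 28.0 ± 4.59 at 1 μM and 57.1 ± 9.49 at 2 μM, against 17.1 ± 1.29 in the model. HMOX1, an NRF2 target named after its values were seen, differed by 1.71 on the log2 scale between 2 and 0.5 μM. In the opposite direction, 13 of 23 cholesterol genes, 13 of 19 secreted hepatocyte proteins and 13 of 20 replication and mitosis genes were lower at 2 than at 0.5 μM.

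Against Con, the FUCO-0.5 libraries differed by 347 DEGs (2.38%), of which 197 were higher and 150 lower with FFA and 0.5 μM FUCO. By adjusted p alone 1515 genes were higher (10.4%) and 1666 lower (11.4%). CCN2 was at 306 ± 30.4 CPM against 329 ± 3.31 in Con (log2 fold change -0.10, SE 0.09, adjusted p = 0.429) and NR4A1 at 27.7 ± 8.41 against 32.6 ± 3.38 (-0.24, SE 0.16, adjusted p = 0.321). EGR2, ATF3 and KLF2 were below Con (log2 fold changes of -1.54, -1.4 and -1.36, adjusted p = 0.000306, 2.87e-08 and 8.75e-06). Of the immediate early list, 22 of 32 genes were below Con, and CEBPD was the 1 gene above it. DUSP5 and FST, at 4.57 and 5.2 CPM, were below Con levels of 16.5 ± 2.97 and 22.7 ± 4.56 CPM.

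Inflammatory and lipid genes differed from Con as well. CXCL8 was at 110 ± 13.4 CPM against 50.4 ± 17.5 in Con (log2 fold change 1.13, SE 0.30, adjusted p = 0.00868) and CXCL2 at 20 ± 2.34 against 8.53 ± 1.25. In the inflammatory list, 16 of 25 genes were above Con and 1 below, IL1A. PLIN2 was at 703 ± 59.0 against 398 ± 12 CPM and CPT1A at 154 ± 10.3 against 105 ± 1.76 CPM. Of 23 cholesterol genes 22 were below Con, and SCD and FASN were below it by 0.96 and 0.82 on the log2 scale. The model without FUCO differed from Con in the same direction for these 4 lipid genes. Its log2 fold changes against Con were 1.09 for PLIN2, 0.77 for CPT1A, -0.67 for SCD and -0.57 for FASN. The model libraries do not enter the levels of FUCO-0.5 and Con, but the FUCO-0.5 libraries are shared with the comparisons above.

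The fallen genes were short. The median genomic span, as RefSeq (GRCh38.p14) gives it for 14463 of the genes tested, was 28.3 kb over those genes, 7.16 kb for the 169 called lower, 4.08 kb for the 39 DEGs and 20.5 kb for the 42 called higher. A span under 10 kb was held by 23.3% of all genes, 60.9% of those called lower, 76.9% of the DEGs and 26.2% of those called higher. The median GC content of transcripts was 47.8%, 52.4%, 51.5% and 42.0% in the same order. All genes together moved slightly with GC content: the median log2 fold change was 0.04 in the third of genes with the lowest GC content and -0.05 in that with the highest. The part of GC content in the calls was not tested.

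**Figure D5:**
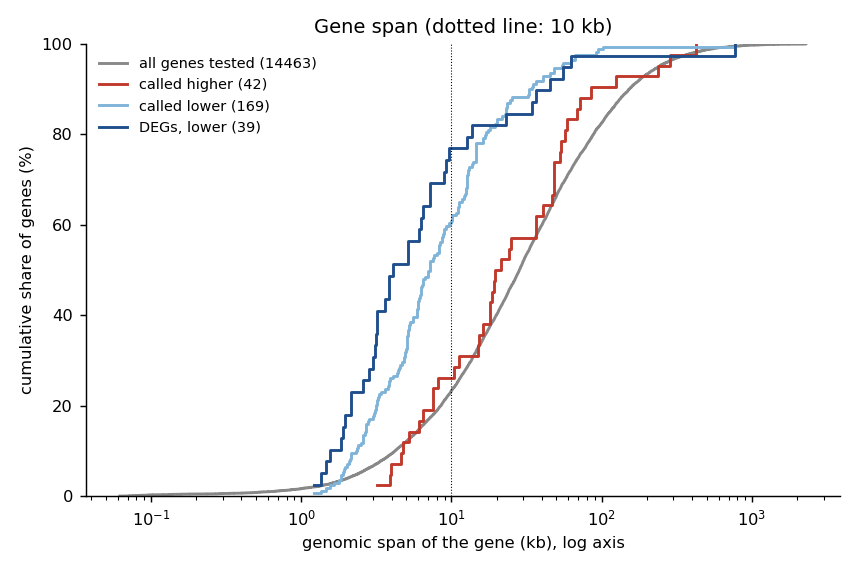
Cumulative share of genes (y axis, percent) up to a given genomic span in kb (x axis, log) for all genes with a span, the genes called higher and lower and the DEGs. The curves of the lower genes and the DEGs lie to the left of that of all genes, with 60.9% and 76.9% under 10 kb (dotted line) against 23.3%.

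The promoter windows were searched for 7 motifs on both strands, and the table held 137 of the 169 genes called lower and 11524 of those tested. A TATA box, TATAAA, was in 30 of the 137 (21.9%, 95% Wilson interval 15.8 to 29.5%), against 6.04% of the tested genes and 12% of all 27305 promoters. The AP-1 site TGANTCA was in 8.76% (5.08 to 14.7%) against 4.46% and 7.76%, and the cAMP response element TGACGTCA in 4.38% (2.02 to 9.23%) against 3.13% and 1.98%. The EGR site GCGNGGGCG was in 17.5% against 15.1% of tested genes, the TEAD site GGAATG in 10.9% against 11%, the FOXO site GTAAACA in 3.65% against 2.45% and the CArG box in 1.46% against 1.04%. A CArG box can overlap a TATA box, and the other motifs do not contain each other. A match describes letters in a window and shows no binding.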

How the data were processed

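Polyadenylated RNA of Hep3B cells was sequenced, and per the paper's methods the authors used STAR for alignment (genome GRCh38.p14) and featureCounts for gene counts. The values used are the raw read counts per gene that the authors deposited, 1 table of 18 libraries in 6 groups of 3. Strand and multi-mapping settings are not given in the sources used here. Groups came from the sample titles, and 0 columns had no sample.

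Of 36684 symbols, 24090 had counts and 14557 passed edgeR's filterByExpr (minimum count 10, minimum total 15). edgeR 4.0.16 in R 4.3.3 fitted its quasi-likelihood model to all 18 libraries with TMM scaling, 1 term per group and a prior count of 0.125. Adjusted p is Benjamini-Hochberg over the genes tested, "called" means adjusted p under 0.05 and a DEG also has an absolute log2 fold change over 1. Fold changes are on the log2 scale with their SE. Tested on simulated data of the main comparison over 14557 genes, edgeR recovered 200 of 200 changed genes with 8 false calls. The changed genes all lay above 1 CPM in the model and had absolute log2 fold changes beyond the threshold of 1. Recovery of smaller changes, such as most called genes had, was not tested. DESeq2 1.42.0, other filters, scalings, a replicate block, glmTreat and leaving out each library were alternatives.

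The 20 largest falls and 8 largest rises among called genes (groups not overlapping, mean level 1 CPM or more), up to 4 called members per list and the lipid and inflammatory genes that the study names are described, with any DEG under 1 CPM. Some list members are not reported here by name. The members and lists were chosen with earlier results of these data known. p-values measure the spread between 3 libraries per group. Intervals cover counting error only. Replicate numbers were not treated as pairs in the main fit. The deviations of same-numbered libraries of the model and FUCO-0.5 correlated at 0.0343, 0.127 and -0.0261, against -0.126 to 0.0959 for libraries of different number. These few values do not settle whether replicate numbers mark a batch. The paper's methods name a GENCODE annotation, while gene positions, overlaps and promoters here come from RefSeq (GRCh38.p14) matched by symbol, so that gene models may differ from those counted. The promoter windows run from 250 bases before to 50 bases after the start.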

Additional observations from a re-analysis of the deposited data

Results flagged for a closer look

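Of the genes described, 9 fell or rose against the model at 0.5 μM and also differed between 2 and 0.5 μM past both DEG thresholds in the same edgeR fit. All 9 were higher at 2 μM, in a test of the difference between the doses. The log2 differences were 2.08 for EID3 (adjusted p = 0.000122), 1.444 for DUSP5 (adjusted p = 1.19e-05), 1.366 for LIF (adjusted p = 0.000152) and 1.342 for IGFBP1 (adjusted p = 0.00101). They were 1.303 for GDF15 (adjusted p = 7.90e-06), 1.287 for ANKRD1 (adjusted p = 0.000707), 1.207 for KRT17 (adjusted p = 0.00551), 1.148 for SLC30A1 (adjusted p = 6.37e-06) and 1.06 for EREG (adjusted p = 8.12e-06). The first comparison shares its FUCO-0.5 libraries with this one, so that a low value in these libraries enters both. SLC30A1 was higher at 0.5 μM than in the model and higher again at 2 μM, while the other 8 genes were lower at 0.5 μM than in the model. Groups of 3 libraries were not examined for single outlying values.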

How the results depend on the processing

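The 39 DEGs kept their direction under every alternative in which they were tested (36 were, with a minimum of 10 counts in each library), and the number of lower DEGs lay between 31 and 44 when single libraries were left out, but glmTreat against the fold threshold kept 5. The numbers of calls depended on the setting. Against 0 higher DEGs, DESeq2 gave 1 with all libraries and 1 with 2 groups, edgeR with 2 groups 3, leaving out the count filter 4, a minimum of 10 in each library 1, and single libraries left out 0 to 2. Against 42 genes higher by adjusted p, these were 77 and 98 with DESeq2, 92 with edgeR on 2 groups, 85 without the filter and 7 to 71 without single libraries. Against 169 lower, they were 301 with DESeq2 and 259 with edgeR on 2 groups, 269 without the filter and 99 to 219 without single libraries. For 1 against 0.5 μM, the 1 call became 57 and 60 with DESeq2, 18 with edgeR on 2 groups, 144 without the filter and 0 to 20 without single libraries. For 2 against 0.5 μM, the 157 DEGs became 103 with DESeq2 on 2 groups, 73 with the minimum of 10, 9 with glmTreat and 126 to 203 without single libraries. Against Con, the 347 became 225, 184 and 36 in the same order and 309 to 434. The cause was not tested. The EGR site was in 27.6% of 29 DEG promoters (95% Wilson interval 14.7 to 45.7%), which holds the 17.5% of those called lower and the 15.1% of tested genes. The AP-1, TEAD, CRE and CArG motifs were in 4, 5, 2 and 1 of the 29. These were 13.8% (5.5 to 30.6%), 17.2% (7.6 to 34.5%), 6.9% (1.91 to 22.0%) and 3.45% (0.611 to 17.2%). Among the genes called lower the shares were 8.76%, 10.9%, 4.38% and 1.46%, and each lies inside the interval of the DEGs.

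With the replicate block, 2 genes were higher DEGs and 8 differed between 1 and 0.5 μM. The block kept 39 DEGs and 208 of 211 calls, and it changed no other count by over 1.5 times. CD36 ranged from -0.03539 (without Model replicate 2) to 0.3103 and DGAT2 from -0.04256 to 0.1231 without single libraries, DGAT2 being below 0 without Model replicate 2 or FUCO-0.5 replicate 1 or 3. Counts of at most 5 in a library limit TNF, IL1B, IL6 and CCL2.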
